A study of Mus musculus with 6 samples.

Results

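Alveolar type 1 (AT1) cells of the mouse lung were described in a single-cell RNA data set on recovery from neonatal hyperoxia in both sexes. The class was taken as the study's authors deposited it: every cell with the cluster name AT1 in any of the 6 libraries was a member, and no expression value of this work chose them. There were 3962 such cells among 55882 cells with a class and 76024 barcodes. All mice were wild-type C57BL/6N. For each sex there was 1 library of newborn mice at postnatal day 1 in room air, 1 of mice kept in room air to postnatal day 21, and 1 of mice given hyperoxia (95% oxygen on days 1 to 5, then room air) and taken at postnatal day 21. A library pooled the lungs of 3 mice, so animals could not be separated, and only the sexes repeated a condition. Lungs were perfused, digested and sorted for live cells, and transcripts were counted as unique molecular identifiers (UMIs) with 10x Genomics 3-prime chemistry.

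AT1 cells are the thin, broad cells that cover most of the gas-exchange surface. They lie on a basement membrane shared with capillary endothelium and send the endothelium growth and guidance signals. AT2 cells, the cuboidal neighbours that make surfactant, renew the alveolar surface by giving rise to AT1 cells, and passing through a keratin-rich intermediate state has been described for that step. In the mouse the alveoli form mainly after birth, between the ages sampled here, and early high oxygen is used as a model of bronchopulmonary dysplasia.

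Libraries held 122173482 to 163649658 UMIs. The AT1 class supplied 22729811 and 17271054 UMIs at day 1 (female, male). At day 21 it supplied 615349 in the female hyperoxia, 494538 in the female room air, 818837 in the male hyperoxia and 189222 in the male room air library. Levels are given as CPM, a gene's UMIs scaled to the total of the class in that library, which do not correct for gene length, so they compare 1 gene between samples or classes. A few barcodes were shared between libraries, 9 to 37 cells per pair, and at most 1 of them was an AT1 cell. Day 1 libraries had been counted with Cell Ranger 6.0.0 and day 21 libraries with 7.0.1, so age and software version cannot be told apart.

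The day 21 class held cells with airway genes beside cells with AT1 genes. A cell was called airway-marked where it had at least 5 UMIs over 5 ciliated cell genes (Foxj1, Ccdc153, Tmem212, Dynlrb2, Cfap126) or at least 5 UMIs of 4 neuroendocrine genes, a rule chosen after the cells were seen. There were 2 airway-marked cells in the female and 8 in the male library at day 1, 5 in the female hyperoxia, 11 in the female room air, 8 in the male hyperoxia and 0 in the male room air library. These cells stood far from the rest: the ciliated ones at day 21 held 77 to 239 ciliated UMIs each, against at most 2 in any remaining day 21 cell. Airway-marked cells made up a larger part of the female room air library, where 21 other cells were left, than of the male room air library, where all 14 cells remained. The level of Foxj1, the regulator of motile cilia, was 115 CPM in the female hyperoxia, 322 in the female room air, 114 in the male hyperoxia and 0 in the male room air AT1 sum. It was 0 in all 4 once the marked cells were left out, which the rule itself favours, since Foxj1 is among its genes. The fits, the marker levels, the shares of cells and the leading genes were computed with and without them, and the other values below are of all AT1-class cells.

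**Figure D1:**
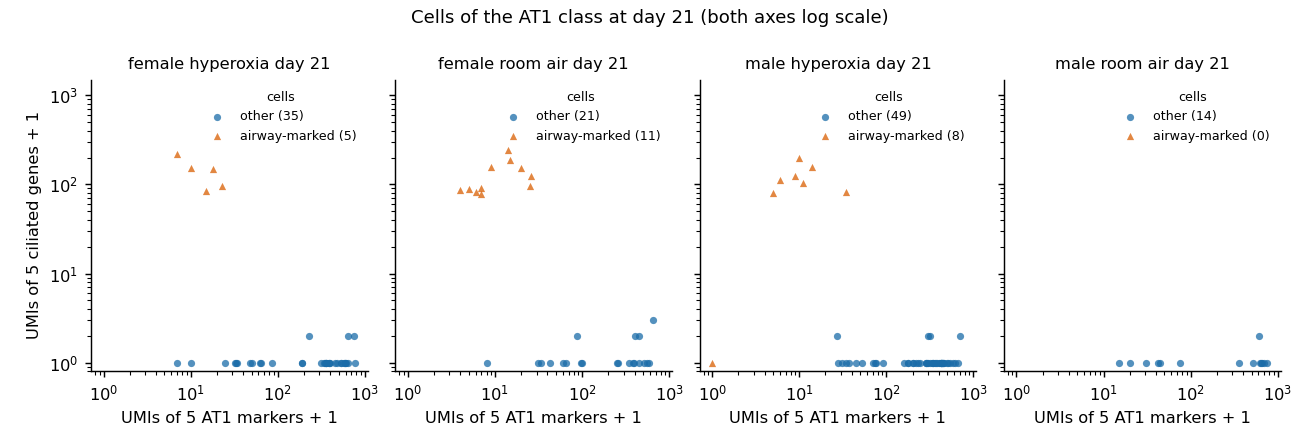
UMIs of 5 ciliated cell genes (vertical axis) against UMIs of the 5 AT1 markers (horizontal axis) in each AT1-class cell of the 4 day 21 libraries, 1 panel per library and 1 point per cell. In 3 of the libraries the ciliated airway-marked cells sit apart at 77 to 239 ciliated UMIs, 1 airway-marked cell of the male hyperoxia library lies at 0 with 178 neuroendocrine UMIs, and the male room air library has none.

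The class was described by 5 markers given with it, with no test, since clustering had used these genes. The markers were Ager, the receptor for advanced glycation end products, the homeodomain protein Hopx, Rtkn2, the anchoring protein Akap5 and the water channel Aqp5. At day 1, 1932 of the 2052 female and 1632 of the 1757 male cells that were not airway-marked had a UMI of all 5. At day 21 the same held for 29 of 35 in the female hyperoxia, 19 of 21 in the female room air, 46 of 49 in the male hyperoxia and 10 of 14 in the male room air library. Over all day 21 cells of the class, airway-marked ones included, it held for 29 of 40, 19 of 32, 46 of 57 and 10 of 14. The unmarked cells held a median of 165 to 438 UMIs of the 5 markers per library, with a range that reached down to 0 at day 1 and 6 at day 21. After each cell was thinned to 2000 UMIs, Ager was found in 99.1% of AT1 cells in the female and 99.3% in the male day 1 library. In general capillary cells (gCap), an endothelial class that should lack it, the thinned share was 13.3% and 15.5%. In the nearest epithelial classes it was higher, at 59.9% to 74.1% of AT2 and AT2 Lyz1+ cells in the 2 libraries. The thinned level of Ager there was 534 to 1204 CPM, against 8164 and 8235 CPM in AT1. The day 1 gCap cells had a median of 5642 and 5203 UMIs before thinning, AT1 cells 10294 and 9381. Of 4 basal cell genes, Krt5 and Krt14 had no UMI in AT1 in any library, and Trp63 had 3, all in the day 1 female library. The summed level of the 4 was 3.39 CPM in the female and 5.50 CPM in the male day 1 library. In the male library all of it came from Krt15. At day 21 the sum was 0 in every library.

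Ager lies on chromosome 17 from 34597862 to 34600936 (forward strand; GENCODE M21 on GRCm38, as are all gene positions here). Its level in AT1 was 7516 CPM in the female and 7763 CPM in the male library at day 1, and 8650 (female hyperoxia), 5619 (female room air), 9030 (male hyperoxia) and 13720 CPM (male room air) at day 21. The female room air library was the lowest and the male room air library the highest, the libraries with the most and the fewest airway-marked cells. Without those cells the day 21 levels closed up to 10400, 10520, 11260 and 13720 CPM in the same order, all above both day 1 libraries. Rtkn2 (chromosome 10, 67979570 to 68059740) also lay higher at day 21 in every library, at 1923 to 3879 CPM against 1060 and 1109 CPM. Akap5 (chromosome 12, 76324891 to 76334153) lay lower in every day 21 library, at 698 to 1221 CPM against 2109 and 2168 CPM. As a mean of per-cell CPM, in which shallow cells weigh as much as deep ones, Akap5 was at 2143 CPM in the male room air day 21 library, against 2144 and 2163 CPM at day 1, and at 1057 to 1187 CPM in the other 3. In the 10 other classes compared, none of them epithelial, its log2 ratio of day 21 to day 1 room air had a median of -1.66, against -1.21 in AT1. Aqp5 (chromosome 15, 99590782 to 99594829) was also lower in every day 21 library, at 813 to 1686 CPM against 1909 and 2034 CPM, and at 1523 to 1890 CPM without the airway-marked cells. Hopx (chromosome 5, 77086988 to 77115121) overlapped between the ages, at 2890 to 6268 CPM against 3633 and 3515 CPM. The overlap came from the female room air library alone, and without the airway-marked cells all 4 day 21 libraries, at 4949 to 6268 CPM, lay above day 1.

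**Figure D2:**
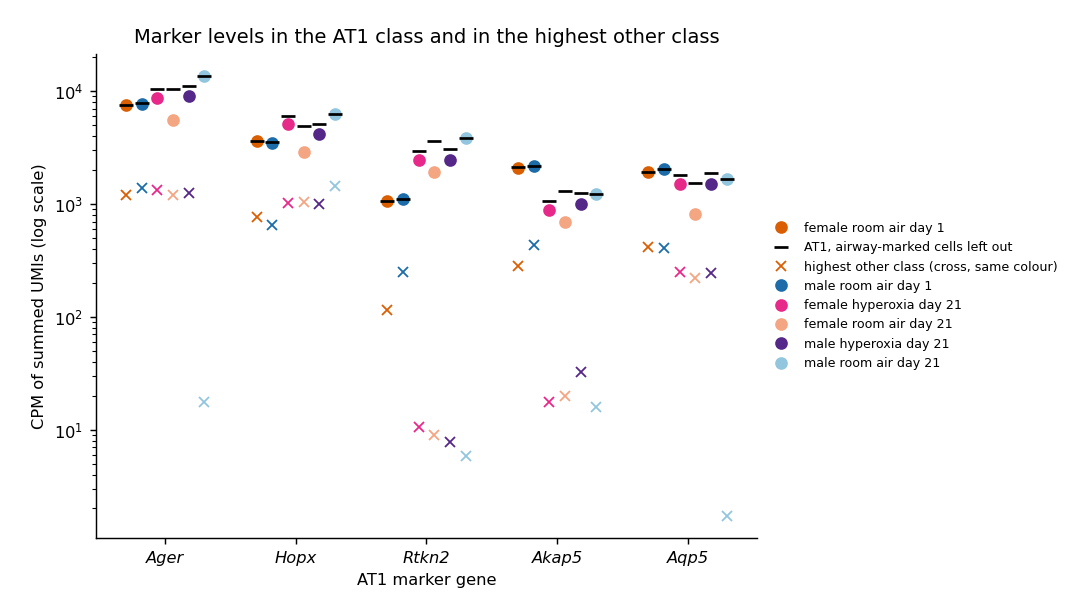
Level of the 5 AT1 markers in CPM (log axis) in each of the 6 libraries, as 1 point per library for all AT1 cells. A dash stands for AT1 cells without the airway-marked ones and a cross for the highest other class with at least 50 cells. The AT1 points lie above the crosses for all 5 genes, and leaving out the airway-marked cells lifts the female room air day 21 library most, Ager there from 5619 to 10520 CPM.

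AT1 cells were abundant at day 1 and rare at day 21. They made up 17.8% of classified cells in the female (exact 95% interval 17.1% to 18.5%) and 15.7% (14.98% to 16.3%) in the male library at day 1. At day 21 the shares were 0.376% (0.257% to 0.530%) in the female room air library, 32 cells, and 0.198% (0.108% to 0.332%) in the male room air library, 14 cells. After hyperoxia they were 0.479% (0.342% to 0.651%) in females, 40 cells, and 0.625% (0.474% to 0.809%) in males, 57 cells. The intervals of the 2 female day 21 libraries overlapped and those of the 2 male ones did not, but each library is 1 pool, the intervals cover counting error only, and no test between groups was made. Without the airway-marked cells the female shares were 0.419% (hyperoxia) and 0.247% (room air), and the male shares 0.537% and 0.198%. Of epithelial cells, the AT1 class formed 81.7% and 51.7% at day 1 (female, male), 40.4% and 40.4% after hyperoxia and 19.4% and 66.7% in room air at day 21, where the male library held only 7 AT2 cells. The shares are of live cells recovered from digested lung, not of cells in the tissue.

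The genes that set AT1 apart at day 1 were ranked by the smaller, over the 2 libraries, of the ratio of AT1 to the highest other class with at least 50 cells, with 5 CPM added to both. Clustering had used these genes, so the ratios are a description with no test. Of 10416 genes with at least 50 AT1 UMIs in both libraries, 35 (0.336%) reached 4-fold in both and 0 reached 10-fold. The leading 25 ran from Scnn1g, a subunit of the epithelial sodium channel (5.64), to Spock2, a matrix proteoglycan (4.18), and held all 5 markers. Genes of the basement membrane (Col4a3, Col4a4), guidance ligands (Sema3a, Sema3e), simple keratins (Krt7, Krt8, Krt18), the cell cycle inhibitor Cdkn2b, tissue factor (F3), the integrin subunit Itgb6 and mesothelin (Msln) stood among them. In the male library the highest other class was most often pericytes, and for Ager it was pericytes at 1391 CPM. With Scrublet's doublets left out of every class, 14 of the 25 stayed in the leading 25 and the highest ratio rose to 19.2, with Rtkn2 first. Of the 25, 15 still reached 4-fold, the lowest ratio among them all fell to 2.22, and 27 genes in all reached 4-fold. Scnn1g, Aqp5, Sema3e, F3, Itgb6, Krt7, Krt8 and Krt18 were among those that left the leading 25. Doublet calls took 22.0% of female and 9.92% of male AT1 cells at day 1. In day 21 libraries 22 of the 25 genes were highest in AT1 in all 4, among classes with at least 50 cells. Msln, S100a14 and Cdkn2b were the 3 that were not. In the male room air library no other epithelial class had that many cells.

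The promoter windows of the leading genes show what stretches of sequence precede AT1 genes. RefSeq windows (GRCm38.p6, the 250 bases before a start site) were matched for 17 of the 25 genes, 23 windows in all. The letters GGAATG, a core bound by TEAD factors, occurred on either strand in 0 of the 23 windows, and in 12.6% of all 32851 windows of this length. The letters CTTGAG, a core bound by Nkx2-1, occurred in 2 of the 23 (8.70%), against 13.3% of all windows. Windows of Ager, a marker of the class, and of the 2 genes with a CTTGAG match, Hopx and Spock2, are given 5′ to 3′ on the gene's strand, with the match in capitals.
Ager, chr17:34597600-34597849, forward strand: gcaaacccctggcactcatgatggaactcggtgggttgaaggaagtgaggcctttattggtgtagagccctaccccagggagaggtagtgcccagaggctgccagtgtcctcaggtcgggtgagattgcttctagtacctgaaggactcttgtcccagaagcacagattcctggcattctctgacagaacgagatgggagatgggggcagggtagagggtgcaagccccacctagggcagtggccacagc
Hopx, chr5:77115124-77115373, reverse strand: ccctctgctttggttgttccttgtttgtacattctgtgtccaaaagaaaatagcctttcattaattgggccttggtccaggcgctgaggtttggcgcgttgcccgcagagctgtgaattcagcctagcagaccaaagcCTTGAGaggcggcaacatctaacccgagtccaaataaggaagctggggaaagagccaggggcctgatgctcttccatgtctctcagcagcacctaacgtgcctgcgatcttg
Spock2, chr10:60106007-60106256, forward strand: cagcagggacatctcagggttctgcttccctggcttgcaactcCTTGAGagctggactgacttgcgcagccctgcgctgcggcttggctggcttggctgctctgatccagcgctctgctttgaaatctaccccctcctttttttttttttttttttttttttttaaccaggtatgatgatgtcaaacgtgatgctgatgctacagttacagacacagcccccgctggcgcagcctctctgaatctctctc
The match began 112 bases before the start site of Hopx and 207 bases before that of Spock2. A match is a run of letters in the sequence, and binding was not measured here.

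Several ligands for neighbouring cells were highest in AT1 among classes with at least 50 cells in a library. In the male room air day 21 library, with 7 AT2 cells, that left no other epithelial class to compare. Vegfa, the growth factor for endothelium, was highest in AT1 in every library. It was at 952 and 807 CPM at day 1 and 1625, 1205, 1530 and 2415 CPM at day 21 (female hyperoxia, female room air, male hyperoxia, male room air). The next class was at most 427 CPM (arterial cells). Its receptor Kdr was highest in aerocyte capillary cells (aCap) in every library, at 1216 to 2151 CPM. Pdgfa, a growth factor for the fibroblasts of the alveolar septum, was highest in AT1 in all 6 libraries at 486 to 787 CPM. Its receptor Pdgfra was highest in myofibroblasts at day 1 and in matrix fibroblasts at day 21. Sema3e, a guidance ligand of Plexin D1, was also highest in AT1 in all 6, while Plxnd1 was highest in venous cells at day 1 and arterial cells at day 21. Wnt3a and Shh had the same standing at lower levels, 33.0 to 126.8 CPM and 21.1 to 140.7 CPM.

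Surfactant genes marked the difference from AT2 cells. Sftpc, the surfactant protein C precursor, was at 1505 and 2154 CPM in AT1 at day 1 and at 126.8, 123.3, 178.3 and 89.8 CPM at day 21, in the library order given for Vegfa. In AT2 cells it ranged from 135400 to 205700 CPM. At day 1 the AT1 reading was carried by few cells: 75.5% (female) and 75.4% (male) of it came from the tenth of AT1 cells with the most, and the median cell held 4 and 6 UMIs. In gCap, which should lack the gene, Sftpc was at 592 and 850 CPM at day 1 and 145 to 279 CPM at day 21. At day 21 the AT1 level was below the gCap level in every library.

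Day 21 room air was set against day 1 room air to ask how AT1 cells change while alveoli form. Counts were summed over AT1 cells per library and fitted with edgeR's quasi-likelihood test over all 6 libraries, with condition and sex as terms and 2 residual degrees of freedom, and p-values were adjusted by Benjamini-Hochberg. Of 9333 genes tested, 1680 (18.0%) were called at an adjusted p under 0.05, 1054 (11.3%) higher and 626 (6.71%) lower at day 21. The count depended on single libraries. It was 16 without the male day 1, 164 without the female day 1, 140 without the female hyperoxia, 343 without the male hyperoxia and 3634 without the male room air day 21 library. In each of these 5 fits at least 1673 of the 1680 called genes had the same direction, and 1520 did without the female room air day 21 library, which left 1571 calls.

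Intron length moved with the age change. The median log2 change was -0.58 in genes without introns and -0.40, -0.15, 0.22 and 0.96 in 4 bins of equal size and rising intron length. In the bin with the longest introns 31.1% of genes were called higher and 1.21% lower, against 3.38% and 15.9% of genes without introns. Whether reads in introns were counted is not given in the sources used here, and the counting software differed between the ages. A fit chosen after this was seen left out the airway-marked cells and took the median change of each of 20 bins of intron length off. It called 842 of 8093 genes higher (10.4%) and 978 lower (12.1%), and 915 of these calls were shared with the first fit. Values from it are given below as adjusted for cells and introns. The rule for airway-marked cells used no secretory gene. Without the marked cells 5 secretory airway genes still summed to 488 (female) and 549 CPM (male) at day 1. In room air at day 21 the sums were 15.2 and 37.0 CPM. Of the Scgb1a1 UMIs at day 1, 99.24% (female) and 99.55% (male) came from the tenth of AT1 cells with the most.

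**Figure D3:**
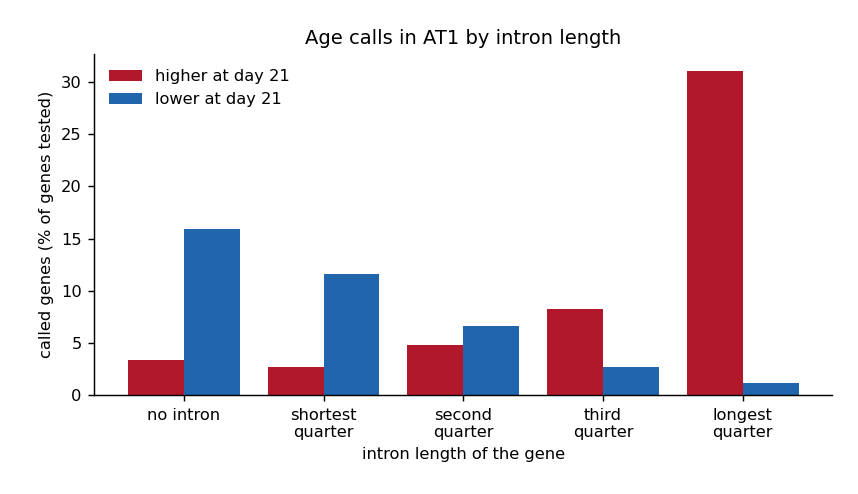
Percent of tested genes called higher (red bars) and lower (blue bars) at day 21 against day 1 in AT1 cells, for genes without introns and 4 equal bins of rising intron length. Calls higher go from 3.38% of intronless genes to 31.1% of the longest bin, and calls lower from 15.9% to 1.21%.

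Of the 5 markers, Akap5 fell (log2 change -1.53 ± 0.26 SE, adjusted p = 0.0236 by edgeR) and the other 4 were not called. The median log2 change of the 5 was -0.08, against 0.06 over all genes tested. Adjusted for cells and introns, Ager (1.08, adjusted p = 7.03e-05) and Rtkn2 (1.05, adjusted p = 9.68e-05) were called higher, and Akap5 stayed lower (-0.47, adjusted p = 0.0325). With intron length correction alone 0 of the 5 markers were called. With only the airway-marked cells left out, Rtkn2 was called higher and Akap5 and Aqp5 lower. Of 24 other AT1 genes 3 rose (Igfbp2, Sema3e, Sema3a) and 0 fell, where 11.3% of all genes rose and 6.71% fell. Once adjusted, 14 of the 24 were called higher and 3 lower, where 10.4% of all genes were called higher and 12.1% lower. Vegfa (adjusted log2 change 1.37, adjusted p = 1.93e-05), the membrane glycoprotein Pdpn (1.61, adjusted p = 9.78e-05) and the collagen Col4a3 (0.84, adjusted p = 0.00159) were among the 14. Without adjustment Vegfa stood at 0.67 ± 0.35 with an adjusted p of 0.226. With intron length correction alone 1 of the 24, Igfbp2, was called higher and 0 lower, beside 294 and 406 of all 9333 genes. With only the airway-marked cells left out 14 were called higher and 2 lower, beside 1389 and 1284 of all 8093 genes.

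Igfbp2, an insulin-like growth factor binding protein used as a marker of fully differentiated AT1 cells, gave the largest called rise of this list. It lies on chromosome 1 from 72824503 to 72852474. Its level was 40.7 CPM in the female and 11.9 CPM in the male library at day 1, and 797.9, 386.2, 512.9 and 972.4 CPM at day 21. All 4 day 21 libraries lay far above both day 1 libraries (log2 change in room air 4.52 ± 0.80, adjusted p = 0.0249, and 4.79 once adjusted for cells and introns). At day 21 no other class with at least 50 cells passed 7.33 CPM. Sema3e rose from 194 and 122 CPM to 1232 to 1987 CPM (3.10 ± 0.33, adjusted p = 0.00733), and the rise was 1.47 (adjusted p = 0.00011) after the adjustment. Sema3a rose by 1.39 ± 0.30 (adjusted p = 0.0373), but stood at -0.011 (adjusted p = 0.969) after it. With intron length correction alone neither Sema3e nor Sema3a was called.

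Nt5e, the ecto-enzyme that makes adenosine from AMP (chromosome 9, 88327197 to 88372092), was at 4.44 and 1.97 CPM at day 1 and at 258, 186, 192 and 407 CPM at day 21. The libraries of the 2 ages did not overlap (6.17 ± 0.61, adjusted p = 0.0066, and 6.34 adjusted for cells and introns). The water channel Aqp4 rose from 1.32 and 0.811 CPM to 13.4 to 48.5 CPM (5.15 ± 0.52, adjusted p = 0.00698), while the water channel Aqp1 fell by 1.80 ± 0.27 and Atp1b1, the beta subunit of the sodium pump, fell by 2.15 ± 0.34. These were the 3 calls among 14 genes of ion and water transport, where 11.3% of all genes rose and 6.71% fell. Adjusted for cells and introns, 3 were called higher and 4 lower, beside 10.4% and 12.1% of all genes. Msln (chromosome 17, 25748613 to 25754378) had 21899 and 14814 UMIs at day 1, 963 and 858 CPM, and 3, 1, 2 and 0 UMIs at day 21. Over the room air libraries the ratio of day 1 to day 21 was 628 with 1 UMI at day 21 (95% counting interval 113 to 24790, adjusted p of the fit 0.00255). The mesothelial genes measured beside it gave no such reading: Lrrn4 had no AT1 UMI in any library, Upk3b 3 in each day 1 library and Wt1 5 in the female day 1 library alone. S100a14 fell by 5.77 ± 0.52 and F3 by 2.55 ± 0.24.

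Of 10 genes of the transitional alveolar state, 3 keratins and Lgals3 fell and 0 rose, where 6.71% of all genes fell. Krt8, a keratin of simple epithelia, was at 1135 and 1325 CPM at day 1 and 424, 566, 503 and 248 CPM at day 21, and its groups did not overlap (log2 change -1.92 ± 0.42, adjusted p = 0.0388). Krt18 fell by 2.78 ± 0.21, Krt19 by 1.80 ± 0.20 and the galectin Lgals3 by 2.21 ± 0.31. Of the 10 list genes 2 had a positive change. With the adjustment 7 of 9 were called lower and 1, Hbegf, higher, beside 12.1% and 10.4% of all genes, and with only the airway-marked cells left out Itgb6 was called higher. Krt8 and Krt18 were also at least 4-fold lower at day 21 in 6 of 10 other classes with enough cells, none of which is epithelial and which hold keratin RNA at low levels. Its part in the AT1 change was not tested. Of the 12 AT2 genes tested 5 fell (Sftpc, Sftpd, Napsa, Lyz1, Slc34a2) and 0 rose, with Sftpc at -4.33 ± 0.34 (adjusted p = 0.00619), from day 1 levels above to day 21 levels below those of gCap. Sftpc was at least 4-fold lower in 4 of the 10 other classes. The falls of Lyz1 and Slc34a2 rest on 1 and 2 UMIs over the day 21 room air libraries. Adjusted for cells and introns, 7 of the 12 AT2 genes were called lower and 0 higher, beside 12.1% and 10.4% of all genes. With intron length correction alone only Napsa and Sftpc were called, both lower.

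**Figure D4:**
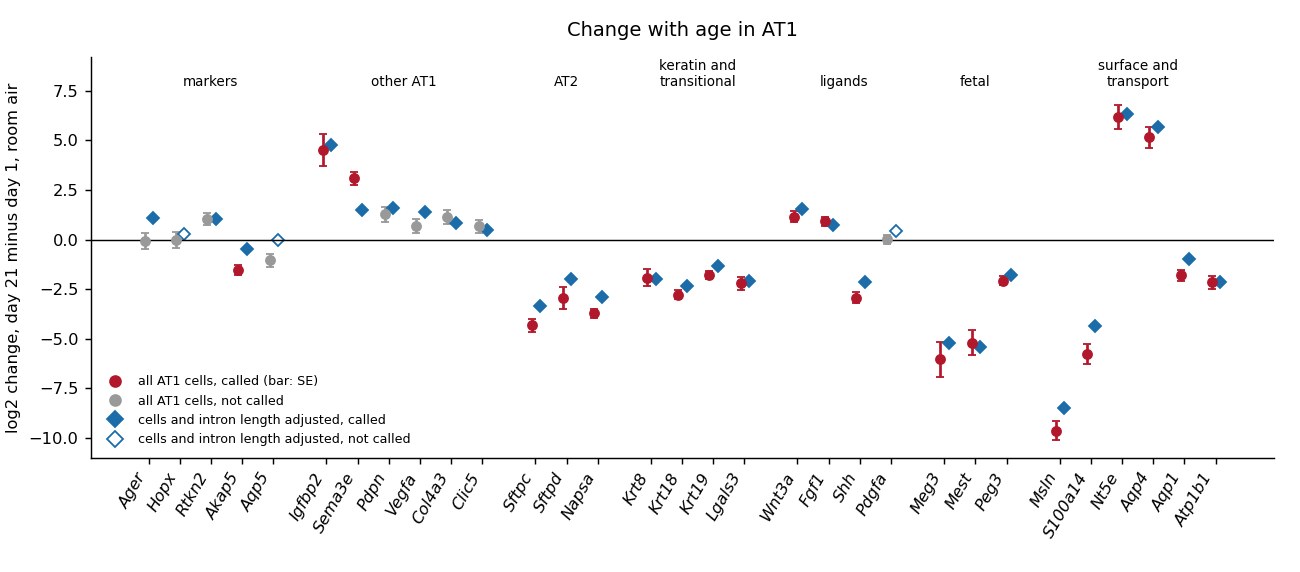
Log2 change of named genes in AT1 from day 1 to day 21 in room air, by gene group, with all AT1 cells (circles with SE bars, red where called and grey where not) and after adjustment for airway-marked cells and intron length (diamonds, filled where called). The fitted changes of Msln and Mest rest on 1 and 2 UMIs in room air at day 21. Igfbp2 (4.52 and 4.79) and Nt5e (6.17 and 6.34) keep their size, while Sema3e goes from 3.10 to 1.47.

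Of 24 ligands tested, 4 rose (Wnt3a, Fgf1, Sema3a, Sema3e) and 4 fell (Shh, Bmp4, Ccn1, Ccn2), where 11.3% of all genes rose and 6.71% fell. In the fit adjusted for cells and introns (the adjusted fit) 6 of 21 were called higher (Fgf1, Pdgfb, Sema3b, Sema3e, Vegfa, Wnt3a) and 1, Shh, lower, beside 10.4% and 12.1% of all genes. Shh, the hedgehog ligand that signals from epithelium to mesenchyme, went from 135 and 141 CPM to 21.1, 22.2, 30.5 and 21.1 CPM, without overlap (-2.94 ± 0.28, adjusted p = 0.00619, and -2.13 adjusted for cells and introns). Wnt3a, a ligand of the canonical Wnt pathway, rose by 1.15 ± 0.28 (adjusted p = 0.0492) and by 1.54 once adjusted, and Fgf1 by 0.93 ± 0.23 and 0.72. Pdgfa did not pass (0.01 ± 0.23, adjusted p = 0.991). Bmp4 fell by 0.95 ± 0.22 (adjusted p = 0.0442), stood at 0.055 after the adjustment and was not called there. Ccn1 and Ccn2, matricellular targets of Yap and Taz, fell by 1.65 ± 0.37 and 1.53 ± 0.37, and neither was called after it. In the list of Yap and Taz targets 2 rose (Nt5e, Ptpn14) and 2 fell of 10, and in that of Hippo pathway genes 1 rose (Stk3) and 1 fell (Tead2) of 18. In the adjusted fit Nt5e was the only target called of 9, and of the Hippo genes neither Stk3 nor Tead2 was called while Amotl1 and Wwtr1 were called lower. Of the 7 receptors tested 1 fell (Ednrb), and in the adjusted fit 5 were called lower (Ednrb, Flt1, Kdr, Nrp1, Nrp2). Ednrb and Kdr are also endothelial genes, a list of which 7 of 12 fell in the same comparison (median log2 change -1.41), and the part of endothelial RNA in the receptor values was not tested.

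Of 17 basement membrane genes 3 rose (Col4a5, Col4a6, Lama3) and Nid1 fell, where 11.3% of all genes rose and 6.71% fell. In the adjusted fit 5 were called higher (Agrn, Col4a3, Col4a4, Col4a5, Lamb2) and 4 lower (Fras1, Lamc1, Nid1, Npnt), beside 10.4% and 12.1% of all genes. Col4a5 kept its call after the adjustment (1.71 ± 0.30 before, 0.89 after, adjusted p = 0.00106 by edgeR). With intron length correction alone 0 of the 17, Col4a5 included, were called higher. Lama3 rose by 1.71 ± 0.24 and was not called after it (0.29, adjusted p = 0.205). Of 8 caveola genes 1 fell, Cavin3 (-3.41 ± 0.25), and in the adjusted fit Cav2 and Cavin2 were called higher and Cavin3 lower. Of 15 lung epithelial transcription factors Nfia rose and Nkx2-1, Klf4 and Id2 fell, and in the adjusted fit Nfia was called higher and Gata6, Id2, Klf4 and Nfib lower of 13. Nkx2-1, the factor that sets lung epithelial identity, fell by 1.00 ± 0.24 (adjusted p = 0.0474), and stood at -0.19 (adjusted p = 0.445) after the adjustment. Of 9 BMP and TGF-beta response genes Id1, Id3 and Smad7 fell, and in the adjusted fit the same 3 were called lower and Bmpr1a higher.

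Of 13 imprinted and fetal growth genes tested 6 fell (H19, Dlk1, Meg3, Mest, Peg3, Igf2bp3) and 0 rose, where 6.71% of all genes fell. The other 7 were not called, 1 of the 13 had a positive change, the median log2 change was -2.19, and after the adjustment 11 of 12 were called lower, beside 12.1% of all genes. H19 was at 36.2 and 16.7 CPM at day 1 and had no UMI in any day 21 library, at least 6.33-fold lower in room air against a floor of 3 UMIs over both libraries. Dlk1 was at least 6.58-fold lower on the same floor. H19 was not called by DESeq2 (adjusted p = 0.0555) or by edgeR with intron length correction alone (adjusted p = 0.0696). It was not tested in the fit without the airway-marked cells. Meg3 went from 637 and 635 CPM to 21.1, 16.2, 96.5 and 0 CPM (-6.04 ± 0.88, adjusted p = 0.0154). The fall extended beyond AT1: Meg3 was at least 4-fold lower in 10 of 10 other classes and Mest and Dlk1 in 7.

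Of 6 MHC class II genes tested 5 rose (Cd74, H2-Aa, H2-Ab1, H2-Eb1, H2-DMb1), where 11.3% of all genes rose, and in the adjusted fit 4 of 5 were called higher, where 10.4% of all genes were. Cd74, the invariant chain, went from 22.2 and 10.8 CPM to 442, 348, 553 and 143 CPM (3.60 ± 0.45, adjusted p = 0.0106). It was at 2665 to 3142 CPM in AT2 cells at day 21 and at least 4-fold higher at day 21 in 7 of 10 other classes. The leukocyte gene Ptprc moved between the libraries too, at 40.5 and 7.35 CPM at day 1 and 3.25, 105, 52.5 and 95.1 CPM at day 21, and its part in the Cd74 values was not tested. Of 7 interferon genes 3 rose (Ifit1, Ifit3, Rtp4), and in the adjusted fit 4 were called higher, beside the same shares of all genes. Ifit1 went from 8.31 and 11.6 CPM to 102, 58.6, 89.2 and 122 CPM (2.77 ± 0.38, adjusted p = 0.0132 by edgeR). At day 21 the highest other class with at least 50 cells was venous cells, at 44.2 to 85.4 CPM. Ifit1 was higher in AT1 than there in 3 of 4 libraries, and in all 4 without the airway-marked cells.

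The counts of the next lists stand beside 11.3% of all genes called higher and 6.71% lower, and in the adjusted fit beside 10.4% and 12.1%. Of 11 immediate early and stress genes that tissue digestion can induce, 3 fell (Fos, Jun, Jund), and in the adjusted fit 5 were called lower. Of 15 junction genes Cdh1 rose, and in the adjusted fit it was not called, while 1 of 14 was called higher (Cgn) and 6 lower (Cldn3, Cldn4, Cldn7, Dsp, Epcam, Tjp1). Of 12 p53 targets Perp fell, and in the adjusted fit Perp and Cdkn1a were called lower and Sesn2 higher. Of 12 oxidative stress genes Gpx2 rose. Without the airway-marked cells Gpx2 no longer passed the filter on low counts, and in the adjusted fit Prdx6 was called higher and Mt1 and Txnrd1 lower of 10. The p53 and oxidative stress counts were near the shares of all genes. Among genes of other cell types, 7 of 12 endothelial genes fell, including Ramp2 (380 and 256 CPM at day 1, 100 to 215 CPM at day 21), 1 of 4 mesenchymal genes (Tagln), 1 of 3 secretory genes (Scgb3a2) and 3 of 3 haemoglobin genes fell. In the adjusted fit 4 of the 12 endothelial genes were called lower and 1, Tmem100, higher. The 2 secretory genes tested there, Scgb1a1 and Scgb3a2, were both called lower. The summed level of the 12 endothelial genes was 987 to 1443 CPM at day 1 and 602 to 1172 CPM at day 21. The 6 ciliated genes had a median log2 change of 4.94 with 0 calls, and of 8 immune genes Cd74 alone was called. Of the cycling genes only 1 was tested and not called, the 10 sex-linked genes gave 0 calls, Msln was the only mesothelial gene tested, and no basal or neuroendocrine gene passed the filter on low counts.

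The 10 called genes with the largest rise were Lrmda, Gm20732, Slc35f3, Cyp2b10, Cmss1, Bdnf, Camk1d, 2610307P16Rik, Thrb and Rcan2. Some of these rises were shared: Lrmda, Cmss1 and Camk1d were at least 4-fold higher at day 21 in 10 of 10 other classes, and Gm20732 in 9. For 2610307P16Rik this held in 6 of the 10. Cmss1, for example, went from 12.3 and 11.9 CPM to 3435 to 4428 CPM in AT1. Lrmda, Cmss1 and Camk1d hold 1033660, 302868 and 413632 intron bases, within the bin of longest introns. Adjusted for cells and introns, their log2 changes were 6.7, 6.1 and 5.7, against 8.8, 8.0 and 7.5 before. Also in that bin were 2610307P16Rik, Thrb, Rcan2 and Slc35f3, with 422294, 370427, 233794 and 94616 intron bases. The adjusted log2 changes of these were 5.1, 4.1, 4.8 and 8.5, against 6.8, 6.3, 6.3 and 8.7 before. Gm20732, with 21508 intron bases, stood at 9.3 against 8.8. The part of intron reads in these rises was not tested. Slc35f3, Cyp2b10 and Rcan2 were at least 4-fold higher in 0 of the 10 other classes. None of the 10 is epithelial, since AT2 had only 7 cells in the male room air day 21 library. Cyp2b10, a cytochrome P450 of drug and steroid metabolism, went from 0.572 and 1.04 CPM to 374, 495, 388 and 301 CPM (8.64 ± 0.48, adjusted p = 0.0042, and 9.87 adjusted for cells and introns). Slc35f3, of a solute carrier family, went from 0.308 and 0.289 CPM to 122, 194, 86.7 and 132 CPM (8.71 ± 0.32). Bdnf, a neurotrophin, was 4-fold higher in 1 other class and Thrb, a thyroid hormone receptor, in 2. Igfbp2, Nt5e and Aqp4 were 4-fold higher in 0 of the 10. Whether the change differed between classes was not tested.

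**Figure D5:**
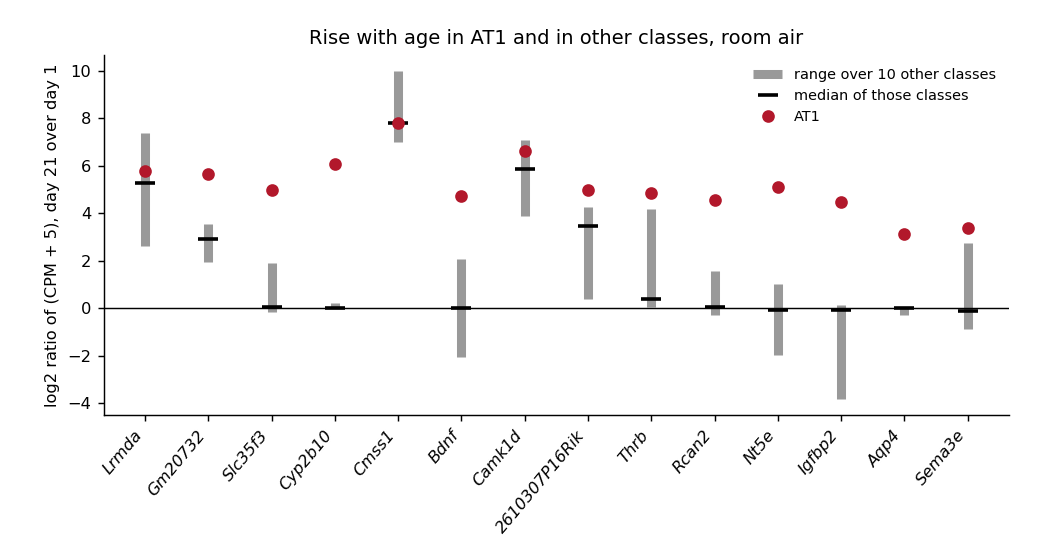
Mean log2 ratio of (CPM + 5) between day 21 and day 1 room air in AT1 (point) and its range and median over 10 other classes (bar and dash) for the 10 largest rises and Nt5e, Igfbp2, Aqp4 and Sema3e. None of the 10 classes is epithelial. Cmss1, at 7.79 in AT1, lies inside the range of 7.02 to 9.99, while Cyp2b10, at 6.08, lies far above the highest other class at 0.21.

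By fitted change the 10 genes at the head of the falls had no UMI in either day 21 room air library: Gm33489, Gm12840, Fabp3, Hist1h1b, H19, Dlk1, Hist1h2ap, Gjc1, Nsg1 and Trim59. Against the floor of 3 UMIs over both libraries (4.39 CPM), they were at least 3.93-fold (Gjc1) to 16.4-fold (Gm33489) lower. Their rank depends on how a count of 0 is fitted, and the measured ratio of Msln, 628, lies above all 10 bounds. DESeq2 did not call Gm33489 (adjusted p = 0.323) or H19 (adjusted p = 0.0555). With intron length correction alone, edgeR did not call Hist1h1b, H19, Dlk1, Hist1h2ap, Gjc1, Nsg1 and Trim59 (adjusted p 0.0533 to 0.0729). Without the airway-marked cells H19, Gjc1, Nsg1 and Trim59 did not pass the filter on low counts. The rest were called in the adjusted fit. Fabp3, a fatty acid binding protein, was at 43.4 and 46.6 CPM at day 1 and at least 10.2-fold lower. Hist1h1b and Hist1h2ap are replication-dependent histone genes. In a day 1 library 7 of the 10 were at least 4-fold higher in a class that is not epithelial than in AT1. These were Hist1h2ap (166-fold), Hist1h1b (69.6-fold) and Trim59 (7.95-fold) in the class named Prolif Ecs, H19 (55.7-fold) in myofibroblasts, Gjc1 (43.6-fold) in pericytes, Nsg1 (17.5-fold) in aCap and Dlk1 (15.9-fold) in matrix fibroblasts. The part of RNA from those classes in the AT1 values was not tested. Of the 10 leading rises 1, Lrmda, had such a ratio in a day 21 library.

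Hyperoxia was set against room air at day 21 to ask what remained in AT1 cells after recovery. These libraries share the room air pair with the age comparison. The fit called 0 of 9333 genes (0%), with 361 at an unadjusted p under 0.05, and DESeq2 called 5. The count of calls by edgeR was 0 in every gene list, the 5 markers included. Ager after hyperoxia stood at -0.08 ± 0.40 (adjusted p = 1 by edgeR). Hspb1, a small heat shock protein, was at 367 (female) and 398 CPM (male) after hyperoxia and at 142 and 143 CPM in room air (1.36 ± 0.20, unadjusted p = 0.000902, adjusted p = 1). Malt1, a protease of NF-kappaB signalling, was at 128 and 144 CPM against 22.2 and 37.0 CPM. Srgn, a proteoglycan of blood cell granules, was at 66.6 and 103 CPM against 429 and 481 CPM, and Lmnb1, a nuclear lamin, at 6.50 and 4.89 against 50.6 and 52.9 CPM. For these 4 genes both hyperoxia libraries lay on the same side of both room air libraries. The genes were chosen for their small p-values after these were seen, so that separation adds no support. The share of all genes tested that separate in this way was not counted. All 4 are among the 5 genes that DESeq2 called. The other one, Slc7a11, a cystine transporter on the oxidative stress list, had no UMI in either hyperoxia library and was at 70.8 (female) and 58.1 CPM (male) in room air (edgeR adjusted p = 1). edgeR called it lower when the female or the male room air library was left out, with 1 room air library then standing for its group. Slc7a11 was highest in neutrophils, at 831 to 1083 CPM at day 21, and their part in its AT1 values was not tested.

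RNA of immune and endothelial genes moved with the groups. Of 8 immune genes 7 had a negative log2 change after hyperoxia (median -1.46), and their summed level was 505 and 989 CPM after hyperoxia and 1725 and 2230 CPM in room air (female, male). All 12 endothelial genes had a positive one (median 0.94), with sums of 1172 and 1145 CPM against 655 and 602 CPM. Without the airway-marked cells the endothelial sums were 1379 and 1208 CPM against 1190 and 602 CPM, so the female libraries lay closer together. The immune sums were then 327 and 1051 CPM against 1902 and 2230 CPM. The part of immune and endothelial RNA in the values of Srgn and the other genes was not tested. Genes of cilia and airway cells changed direction with the room air library that was left out. Dnah12, Fam183b and Cyp2f2, for example, came out lower after hyperoxia without the male room air library. The same genes came out higher without the female one. The female room air library held 11 airway-marked cells and the male one 0, and their part in these changes was not tested. Each of these fits holds 1 room air library at day 21, which is assumed to vary like the other groups. Without the airway-marked cells 2 were called, Nfkbiz and Srgn, both lower. Of the list genes for damage, Cdkn1a, a cell cycle inhibitor induced by p53, was at 213 and 212 CPM after hyperoxia and 172 and 47.6 CPM in room air (0.84 ± 0.48, adjusted p = 1).

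Female against male over the 3 conditions gave 2 calls of 9333 (0.0214%), both sex-linked. Xist, the RNA of the inactive X chromosome, was at 466, 262 and 354 CPM in female libraries (day 1, day 21 hyperoxia, day 21 room air) and at 0.116, 1.22 and 0 CPM in the male ones (adjusted p = 0.038 by edgeR). Over the 3 libraries of each sex the female to male ratio was 2791 with 3 male UMIs (95% counting interval 955 to 13530). Uty, on the Y chromosome, was at 0.044, 0 and 0 CPM in female and 17.7, 75.7 and 52.9 CPM in male libraries (adjusted p = 0.0479 by edgeR), a male to female ratio of 492 with 1 female UMI (87.7 to 19470). The labels of sex matched in all 6 libraries. No gene of any other list was called, and 48 genes had an unadjusted p under 0.05. The count was 12 without either day 21 room air library, 1 without the male hyperoxia library and 0 without the female day 1, the male day 1 or the female hyperoxia library. Of female AT1 cells, 11.98% at day 1, 42.5% at day 21 after hyperoxia and 28.1% at day 21 in room air had no Xist UMI, with median depths of 10294, 17972 and 17367 UMIs.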

How the data were processed

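The authors deposited UMI counts, whole numbers for each gene in each barcode. The authors counted reads with Cell Ranger 6.0.0 (day 1) and 7.0.1 (day 21), per the file headers, against mm10 and with Seurat 4.1.1, per the submitters' processing notes. Cell classes are the authors' deposited cluster names. How cells were filtered and doublets removed was not given in the sources used here. Members and gene lists were chosen with earlier results of these data known.

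Here counts were summed per library over AT1 cells (at least 10 per library) and tested with edgeR 4.0.16 (filterByExpr, TMM, quasi-likelihood test, condition and sex as terms, R 4.3.3), Benjamini-Hochberg adjusted. The fit was also run on counts simulated with the same spread for all genes, a run that does not measure its error in these libraries. The libraries are single pools and sex is a term of the fit. The p-values therefore rest on how the difference between the sexes varied over the conditions. They do not measure the spread between animals. Intervals are exact 95% ones and cover counting error only. Named genes were the 5 markers, list members, the 25 leading genes, and for each contrast up to 10 called genes per direction, by size of change, with at least 20 UMIs in each library of the higher side and 1 direction in both sexes. The ranks passed over genes of mitochondria, ribosomal proteins and haemoglobin. Alternatives were DESeq2 1.42.0, other scaling, filters and covariates, leaving out each library, Scrublet doublets (scanpy 1.11.5) left out, equal cell numbers and a stricter cell filter. Those on airway-marked cells and introns were chosen after seeing the data. Coordinates and introns are from GENCODE M21.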

Additional observations from a re-analysis of the deposited data

Results flagged for a closer look

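Barcodes without a class held AT1 RNA. A barcode of at least 500 UMIs was counted where the 5 markers made up at least 50 of every 10000 of its UMIs. That held for 7.80% (267 barcodes) and 15.5% (494) of such unassigned barcodes at day 1 (female, male). At day 21 it held for 0.462% (17) in the female hyperoxia, 0.733% (18) in the female room air, 0.990% (39) in the male hyperoxia and 0.549% (19) in the male room air library. In gCap cells the same rule took 0.485% and 0.475% at day 1 and 0.0411%, 0.0561%, 0.0697% and 0% at day 21. Scrublet called 160 and 389 of the marked day 1 barcodes doublets, and 0, 1, 4 and 0 of those at day 21. In the male room air library the 19 barcodes outnumber the 14 cells of the AT1 class. They were shallow, with a median of 2382 UMIs, against 15139 in the AT1 class and 7711 in gCap there. So gCap is no comparison of like depth for them.

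The markers moved in opposite directions after hyperoxia in the 2 sexes, with 1 library on each side, and the difference was not tested. The log2 ratio of hyperoxia to room air was 0.62 in females and -0.60 in males for Ager, 0.84 and -0.59 for Hopx, 0.37 and -0.66 for Rtkn2, 0.35 and -0.27 for Akap5, and 0.89 and -0.16 for Aqp5. Airway-marked cells differed between the same libraries. Without them the ratios were -0.02 and -0.29 for Ager, 0.30 and -0.30 for Hopx, -0.27 and -0.34 for Rtkn2, -0.28 and 0.05 for Akap5, and 0.25 and 0.16 for Aqp5, and Hopx and Akap5 still had opposite signs.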

How the results depend on the processing

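The day 21 libraries held 14 to 57 AT1 cells and each group 1 library, which limits every test here. No paired analysis was possible because no group holds 2 numbered replicates, and the sex of the libraries, which the conditions share, is already a term of the fit. Age calls numbered 1680, and 16 to 3634 with each library left out, 3010 without the filter on low counts, 2957 without sex as a term, 1050 with only the 4 room air libraries and 751 with equal numbers of cells (14 per library). They numbered 2673 without airway-marked cells, 700 with intron length correction and 27 of 223 among genes without introns. DESeq2 gave 1986, upper-quartile scaling 1729 (and moved the median log2 change of all genes from 0.06 to -0.04), no doublets 2148 and the stricter cell filter 1708.

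Hyperoxia calls numbered 0, and 0 to 102 with each library left out, 5 with DESeq2, 29 without the filter and 2 without airway-marked cells. Sex calls numbered 2, and 0 to 12 with each library left out, 5 with DESeq2, 13 without the filter, 0 without condition as a term, 1 without doublets, 1 with equal numbers of cells and 10 without airway-marked cells.

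Of the log2 changes of named genes over all alternatives, 785 kept their direction and their side of the threshold, 219 kept the direction only and 6 reversed. Sema3a stood at -0.75 with intron length correction and at -0.011 with the airway-marked cells also left out, where Bmp4 stood at 0.055. Col4a6 stood at -0.10, Lama3 at -0.42 and Ptpn14 at -0.14 with intron length correction. The cause was not tested. Of the levels of 9 genes over the libraries and alternatives, 152 stayed within their counting interval and 118 did not. In the male room air day 21 library, Sema3e went from 1987 to 1201 CPM, Rtkn2 from 3879 to 2407 CPM and Akap5 from 1221 to 2143 CPM as a mean of per-cell CPM, and Igfbp2 from 972 to 591 CPM after thinning to 2000 UMIs.

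Shares moved with the denominator. Of all barcodes AT1 made up 13.7% and 12.2% at day 1 and 0.332% and 0.437% after hyperoxia (female, male). Of epithelial cells AT1 made up 81.7%, 51.7%, 40.4%, 19.4%, 40.4% and 66.7% (day 1 female and male, then female hyperoxia, female room air, male hyperoxia and male room air). Without doublets the female day 1 share was 15.6%, and without airway-marked cells the female room air day 21 share 0.247%. Of the 25 leading genes 14 stayed without doublets. A minimum of 50 AT1 cells per library left no contrast to test, and the sex comparison on day 1 libraries alone had no residual degrees of freedom, so neither was run.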
